A study of Mus musculus with 2 samples.

Results

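Collagen chain genes were followed in the livers of athymic mice (strain BALB/c nude, whole organ), with 1 array for day 0 and 1 for day 3 of regrowth following a 70% partial hepatectomy. Per the labels, the day 0 liver is the control and the day 3 liver is regenerating. They give no age, genotype beyond the strain or number of animals per array, and both arrays carry the nude background. The members were all probe sets of the array whose single gene symbol begins with Col, a number, the letter a and a further number. This gave 82 of the 34945 probe sets with 1 symbol, for 42 of 18193 genes, and each of the 42 encodes a collagen chain. The symbols Col6a6, Col28a1 and Col4a3bp had no single-symbol probe set and were not analysed here. With 1 array per day nothing is replicated, so the days cannot be tested against each other, and day, surgery, animal and array cannot be told apart.

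Collagens are proteins, most of them secreted and some transmembrane, built from polypeptide chains. The chains wind into a rope-like helix through repeats of glycine followed by any pair of residues. Fibrillar chains pack into the tensile fibrils of connective tissue, and FACIT chains (fibril-associated collagens with interrupted helices) sit on the surface of those fibrils. Type IV chains form the sheet-like meshwork of basement membranes, type VIII and X chains form hexagonal networks, and type VI chains form beaded filaments. Multiplexins, types XV and XVIII, are proteoglycan collagens of basement membrane zones. In liver, stellate cells and portal fibroblasts are the main known makers of fibrillar collagen, and hepatocytes are known to make type XVIII.

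The values were MAS5 signals, linear probe set intensities that can be compared between the arrays for 1 probe set but not between probe sets. The floor was 68.3, the median signal of the day 3 array, and any lower signal was raised to it. For ratios, a gene was represented by its brightest probe set. The threshold for calling a gene higher or lower was 2-fold. Where either signal was under the floor, the fold is a bound and carries the words at least. In the counts a bound under 2-fold stands as under 2-fold, though the true fold may be larger. The SD of the log2 ratio between probe sets of 1 gene was 0.44 per probe set over 4380 genes. This SD is the only measure of error on these arrays, and it does not cover differences between animals. The tissue label held against its markers, since 9 of 9 hepatocyte markers with a probe set lay above the floor on both arrays.

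Past 2-fold, collagen genes were more often higher than lower at day 3. In bulk RNA, more cells of a type and more RNA per cell cannot be told apart. Of the 42 genes, 13 (31.0%) were at least 2-fold higher at day 3, against 8.93% of all 18193 named genes. The gene at least 2-fold lower was Col27a1, which is 2.38% of the collagen genes, against 3.9% of all named genes. At least 4-fold higher signals were found for 8 collagen genes (19.0%, against 2.27% of all genes), and at least 8-fold higher signals for 4 (9.52%, against 0.77%). In the other direction 1 collagen gene was at least 4-fold lower, against 0.528% of all genes, and none at least 8-fold lower, against 0.121%. Among the 12634 genes above the floor on at least 1 array, the background was 12.9% higher and 5.62% lower, beside 13 and 1 of 26 collagen genes. Among the genes above the floor on both arrays, 11 of 20 collagen genes were at least 2-fold higher, against 11.7% of 10722 genes, and 1 was lower, against 5.76%. Over single probe sets, 21 of 82 (25.6%) were at least 2-fold higher and 2 (2.44%) lower, against 6.97% and 3.76% of all named probe sets. Genes higher at day 3 made up 69.6% of all named genes past 2-fold, 58.5% under quantile normalisation and 86.5% under spike scaling. The median log2 ratio of all genes was 0.08, 0.003 and 0.37 in turn, and the collagen genes split 13 to 1, 12 to 1 and 14 to 1. The count of lower collagen genes depended on the floor. With the 25th percentile floor 14 were higher and 7 lower, and 14 and 6 with no floor. The 14 are 33.3% of the collagen genes, against 13.3% of all named genes under the 25th percentile floor and 12.8% with no floor. The 7 are 16.7% of the collagen genes, against 10.1% of all named genes under the 25th percentile floor. The 6 are 14.3%, against 9.73% with no floor. For lower genes the order of these shares was thus opposite to the one with the floor of 68.3.

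**Figure D1:**
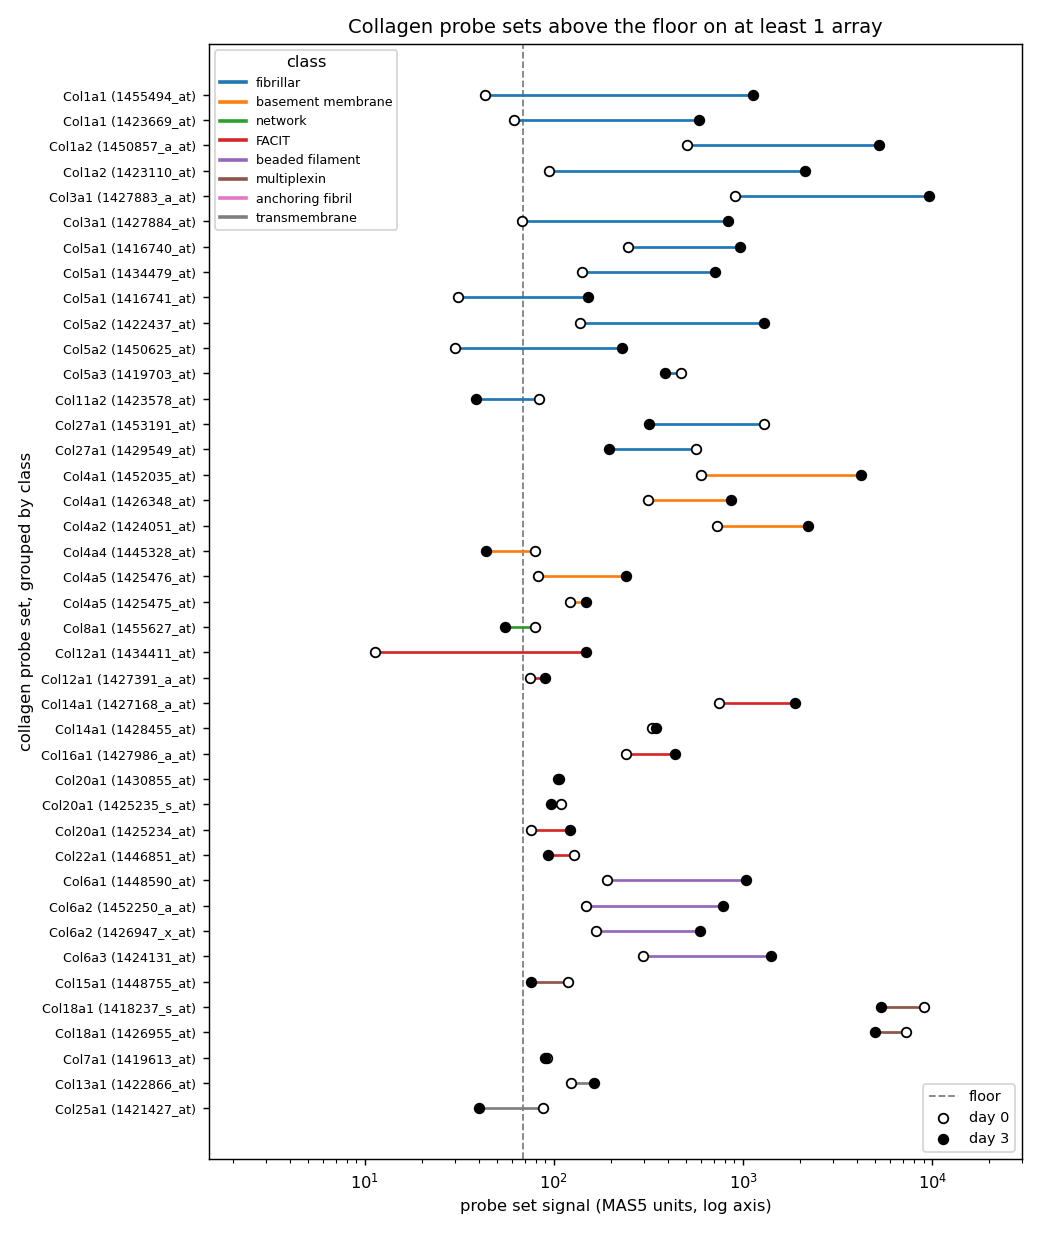
Signal of each of the 41 collagen probe sets above the floor on at least 1 array, at day 0 (open circles) and day 3 (filled circles), on a log axis in MAS5 units. Lines join the 2 arrays and are coloured by class, and the dashed line is the floor of 68.3. Every probe set shown for Col1a1, Col1a2, Col3a1, Col5a1, Col5a2, Col6a1, Col6a2 and Col6a3 lies further right at day 3, while those of Col27a1 and Col18a1 lie further left.

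The fibrillar class held both the highest and the lowest collagen ratio. Of its 11 genes, 5 were at least 2-fold higher (Col1a1, Col1a2, Col3a1, Col5a1 and Col5a2), 1 was lower (Col27a1), 2 were under 2-fold and 3 lay under the floor on both arrays. The 5 higher are 45.5% of the class, against 8.93% of all named genes, of which 3.9% were lower. The median log2 ratio of the 8 analysed genes was 2.61, against 0.08 for all genes, and their range ran from −2.03 to 4.05. It became 1.31 and 1.41 under a 25th and a 75th percentile floor and 0.49 with no floor, where the other 3 genes also enter.

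Col1a1 encodes the alpha 1 chain of type I collagen, the main fibril of scar and connective tissue. Its main probe set read 43.4 at day 0, under the floor, and 1131 at day 3, at least 16.6-fold higher. The other probe set read 61.5 and 582, at least 8.52-fold higher. Both probe sets were thus under the floor at day 0 and clearly above it at day 3. Col1a2 encodes the partner alpha 2 chain, and its main probe set went from 504 to 5241, 10.4-fold higher. A second probe set went from 94.1 to 2124, 22.6-fold higher, and the remaining probe set stayed under the floor with 25.2 and 56.0. The log2 ratios of the analysed Col1a2 probe sets, 3.38 and 4.50, lie on either side of the bound of 4.05 for Col1a1, and the arrays give no order between the type I chains.

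Col3a1, the chain of type III collagen that co-assembles with type I in soft tissue, went from 908 to 9599.5 on its main probe set, 10.6-fold higher. On its second probe set it went from 67.6, just under the floor, to 834, at least 12.2-fold higher. The log2 ratios of these probe sets, 3.40 and a bound of 3.61, were alike. Col5a1 and Col5a2 encode the usual chains of type V collagen, which starts and limits the growth of type I fibrils. Col5a2 went from 137 to 1289.5, 9.40-fold higher, and its second probe set from 29.9 to 229.8, at least 3.37-fold. Col5a1 went from 245 to 968, 3.94-fold higher, with other probe sets at 5.08-fold and at least 2.21-fold. The type V chains differed among themselves, as Col5a3 read 470.2 at day 0 and 385 at day 3, 1.22-fold lower. Its log2 ratio of −0.29 was 3.52 below that of Col5a2, and its sign turned with spike scaling (0.0075).

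Col27a1 encodes a fibrillar chain with a short interrupted helix, known from developing cartilage. Its main probe set went from 1292 to 317, 4.07-fold lower, and its other probe set from 565 to 196, 2.89-fold lower. The probe sets went the same way, and Col27a1 stayed at least 2-fold lower in 11 of 11 alternative settings. Col11a2, a cartilage fibril chain, read 83.4 at day 0 and 38.5 at day 3, at least 1.22-fold lower, a bound that leaves its true ratio undetermined. Col2a1, Col11a1 and Col24a1, chains of cartilage and bone fibrils, were under the floor on both arrays, with no signal above 61.8.

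Of the fibrillar genes with a difference, Col1a2 and Col3a1 have a RefSeq promoter window that ends at the annotated gene start with no other annotation inside it, and these sequences are given here with those of Col6a1, Col6a2 and Col18a1 below. Each sequence is the 250 bases before the start, 5′ to 3′ on the gene's strand, from the GRCm38.p6 table. Capitals mark exact matches on either strand to 4 motifs. These are CCAAT, the element that factor NF-Y binds, GGGCGG, which Sp1 binds, the core promoter element TATAAA, and the pyrimidine run CCCTCCCC.
Col1a2 (chr6:4505368-4505617, plus strand): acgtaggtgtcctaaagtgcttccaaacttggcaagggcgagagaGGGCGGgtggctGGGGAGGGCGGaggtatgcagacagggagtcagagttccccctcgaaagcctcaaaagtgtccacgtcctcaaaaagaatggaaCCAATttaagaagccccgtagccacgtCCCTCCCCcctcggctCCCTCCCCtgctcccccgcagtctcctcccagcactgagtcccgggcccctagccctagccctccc
Col3a1 (chr1:45311288-45311537, plus strand): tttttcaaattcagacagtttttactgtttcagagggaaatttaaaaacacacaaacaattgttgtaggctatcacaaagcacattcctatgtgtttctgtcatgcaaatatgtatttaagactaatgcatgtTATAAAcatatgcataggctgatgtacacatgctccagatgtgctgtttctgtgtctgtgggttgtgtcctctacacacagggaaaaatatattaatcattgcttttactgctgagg
The Col1a2 window held 1 CCAAT, 2 GGGCGG and 3 CCCTCCCC matches, of which a reverse-strand CCCTCCCC beginning 193 bases before the start overlaps the GGGCGG at 188. The Col3a1 window held 1 match, a TATAAA beginning 117 bases before the start. The main probe sets of these genes were 10.4-fold and 10.6-fold higher, and their windows shared none of the 4 motifs.

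Of 6 basement membrane genes, 3 (50%, against 8.93% of all named genes) were at least 2-fold higher, and 1 of these, Col4a5, depended on the probe set. The 4 analysed members of the class had a median log2 ratio of 1.58, with a range from −0.21 to 2.81. This median became 0.59 under a 25th percentile floor and 0.56 with no floor. Col4a1 and Col4a2 encode the chains of the type IV meshwork found in nearly all basement membranes. Col4a1 went from 596 to 4187 on its main probe set, 7.02-fold higher, and from 312 to 866 on the other, 2.77-fold higher. Col4a2 had 1 probe set, which went from 727 to 2201, 3.03-fold higher. The single Col4a2 value of 1.60 (log2) lies between the Col4a1 values of 1.47 and 2.81, so the array gives no order between these chains. Their annotated spans overlap at the starts and run in opposite directions, and neither upstream window is free of the neighbour's annotation, so no sequence is given.

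Col4a5, a chain of the specialised kidney and lung basement membranes, went from 81.9 to 241 on its main probe set, 2.94-fold higher. Its other probe set read 121 and 148, 1.22-fold higher, and with the mean over probe sets Col4a5 had a log2 ratio of 0.92, under 2-fold. Col4a4 read 79.2 and 43.7 on 1 of its 3 probe sets, at least 1.16-fold lower, and the other two were under the floor. Col4a3 and Col4a6 lay under the floor on both arrays. Col4a1, Col4a2 and Col4a5 were thus above the floor on both arrays, Col4a4 on the day 0 array, and Col4a3 and Col4a6 on neither.

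Network chains of types VIII and X lay near or under the floor. Col8a1, a chain of vessel wall networks, read 79.0 and 55.2 on 1 of 3 probe sets, at least 1.16-fold lower. Col8a2 and Col10a1, the latter a marker of hypertrophic cartilage, were under the floor with highest signals of 29.98 and 28.4. No difference could be measured for this class at these signals.

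Among FACIT chains, 2 of 9 were called higher (22.2%, against 8.93% of all named genes), and both calls depended on the probe set. Of the other 7 of 9 genes, 3 were under 2-fold and 4 under the floor, and the median log2 ratio of the 5 analysed was 0.85. It became −0.0087 under a 25th percentile floor, 0.12 with no floor and 0.26 over genes above the floor on both arrays. Col14a1, which coats type I fibrils, went from 747 to 1887 on its main probe set, 2.53-fold higher. A second probe set read 330.4 and 347, 1.05-fold higher, so the probe sets of Col14a1 disagreed by 1.27 on the log2 scale. Without probe sets whose suffix (s, x or a) marks a match to several transcripts, the Col14a1 call was lost (log2 ratio 0.07). Col12a1, a FACIT of loaded tissue, read 11.35 and 147 on its main probe set, at least 2.15-fold higher, and 74.9 and 89.4 on another, 1.19-fold higher. The call of Col12a1 held in 5 of 10 alternative settings that measured it.

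Col16a1, a FACIT found near fibrils and basement membranes, went from 241 to 435, 1.80-fold higher, just under the threshold. Col20a1 read 106 and 105 on its main probe set and had log2 ratios of −0.17 and 0.67 on others. Col22a1 read 128 and 93.4, 1.37-fold lower. Col9a1, Col9a2, Col9a3, the chains of cartilage type IX collagen, and Col19a1 were under the floor on both arrays.

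Of 5 beaded filament genes of type VI, 3 (60%, against 8.93% of all named genes) were at least 2-fold higher. The ratios of these 3 were alike, all past 4-fold on the main probe set. Their median log2 ratio of 2.40 became 1.30 under a 75th percentile floor. Col6a1, Col6a2 and Col6a3 encode the chains that assemble into the type VI microfibrils around cells. Col6a1 went from 190.5 to 1041, 5.47-fold higher. Col6a2 went from 148 to 781, 5.29-fold higher, and from 167 to 591 on its other probe set, 3.55-fold. Col6a3 went from 297 to 1406, 4.74-fold higher. The log2 ratios of the 3 genes, 2.24 to 2.45, spanned 0.21, less than the SD of 0.44 between probe sets of 1 gene. Col6a4 and Col6a5 were under the floor on both arrays. Windows upstream of Col6a1 and of the outer Col6a2 start lie free of other annotation and are given here. The Col6a1 window held 2 CCCTCCCC matches, beginning 70 and 38 bases before the start. The Col6a2 window held 1 GGGCGG match at 175 and 1 CCCTCCCC match at 135, both on the reverse strand.
Col6a1 (chr10:76726045-76726294, minus strand): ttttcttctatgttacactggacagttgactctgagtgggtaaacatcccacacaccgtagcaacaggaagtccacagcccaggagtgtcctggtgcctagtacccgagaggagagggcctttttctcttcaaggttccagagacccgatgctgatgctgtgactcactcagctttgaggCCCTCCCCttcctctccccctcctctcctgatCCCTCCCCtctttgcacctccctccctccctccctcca
Col6a2 (chr10:76623631-76623880, minus strand): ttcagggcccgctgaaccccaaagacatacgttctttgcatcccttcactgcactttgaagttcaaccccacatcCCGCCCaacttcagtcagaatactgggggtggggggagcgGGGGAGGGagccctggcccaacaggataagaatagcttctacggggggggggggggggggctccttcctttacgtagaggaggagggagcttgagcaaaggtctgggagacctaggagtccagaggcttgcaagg

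Multiplexin genes stood lower at day 3, both by less than 2-fold. Col18a1, whose C-terminal fragment is endostatin, read 9049.6 and 5377 on its main probe set, 1.68-fold lower, and 7244 and 4997 on the other, 1.45-fold lower. Col15a1, its relative of vessel and muscle basement membranes, read 118 and 75.6 on its 1 probe set, 1.57-fold lower, with the day 3 signal near the floor of 68.3. Beside these log2 ratios of −0.75 and −0.65, the 9 hepatocyte markers had a median of −0.37 with 9 of 9 under 2-fold, and their summed signal was 415369 at day 0 and 330601 at day 3. After quantile normalisation the marker median was 0.038, and the log2 ratios of Col18a1 and Col15a1 were −0.62 and −0.78. After spike scaling the marker median was −0.076. Col18a1 then had −0.45, about the size of the SD of 0.44 between probe sets of 1 gene, and Col15a1 had −0.35, smaller than it. The part of hepatocyte RNA in the Col18a1 difference was not tested. The window upstream of the outer of the annotated Col18a1 starts held 3 GGGCGG matches, beginning 61, 43 and 33 bases before it, and 1 CCAAT match at 210, all on the reverse strand. A second annotated start lies inside the gene, and the arrays do not say which start was used.
Col18a1 (chr10:77166531-77166780, minus strand): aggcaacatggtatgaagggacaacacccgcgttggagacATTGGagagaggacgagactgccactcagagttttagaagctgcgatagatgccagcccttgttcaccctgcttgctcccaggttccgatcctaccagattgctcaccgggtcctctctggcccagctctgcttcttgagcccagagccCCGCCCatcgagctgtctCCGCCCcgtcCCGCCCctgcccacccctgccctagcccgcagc

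The remaining collagens were low or level. Col7a1, the chain of skin anchoring fibrils, read 92.2 and 89.4, with a sign that turned under spike scaling (0.25). Col13a1, a transmembrane collagen of cell adhesion sites, read 123 and 162, 1.32-fold higher. Col25a1, another transmembrane chain, read 87.1 and 40.03, at least 1.28-fold lower. Col17a1, the hemidesmosome collagen of skin, Col23a1 and Col26a1 were under the floor. In all, 16 collagen genes with 28 probe sets lay under the floor on both arrays, with highest signals from 5.23 (Col9a2) to 61.8 (Col11a1). For these 16 no direction can be read, since an MAS5 signal under the floor can be noise.

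**Figure D2:**
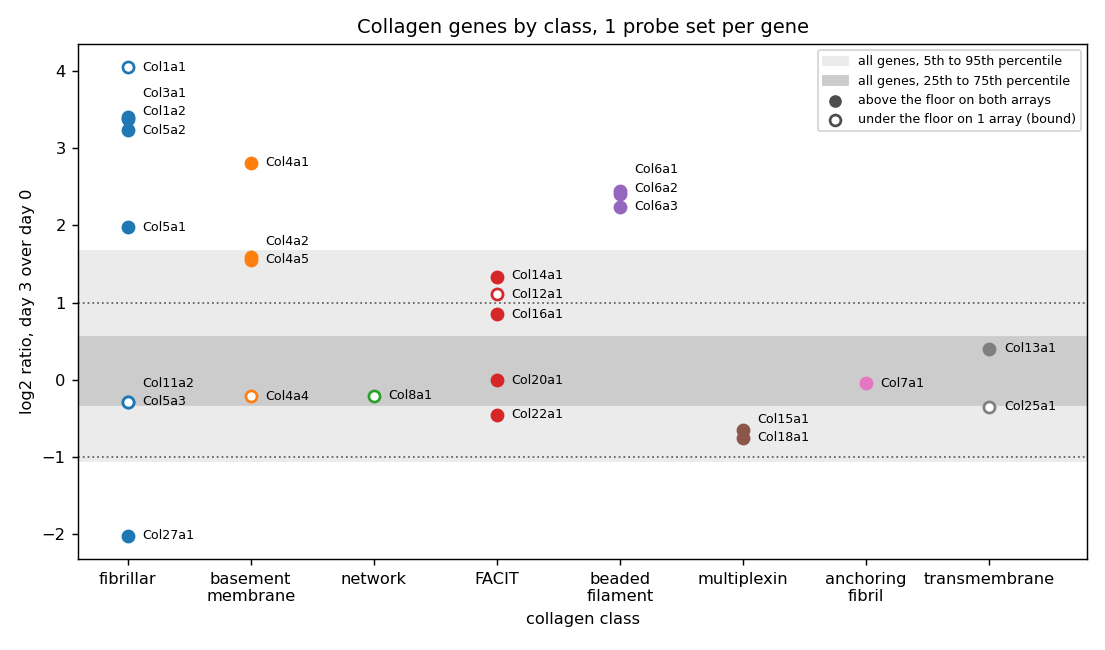
Log2 ratio of day 3 over day 0 for the 26 collagen genes above the floor on at least 1 array, by class, with 1 probe set per gene. Open circles are bounds, dotted lines mark 2-fold, and the grey bands run from the 5th to the 95th and the 25th to the 75th percentile of all 12634 genes above the floor on at least 1 array. Col1a1, Col3a1, Col1a2, Col5a2, Col4a1, Col6a1, Col6a2, Col6a3 and Col5a1 lie above the 95th percentile of all genes (1.67), and Col27a1 lies below their 5th percentile (−1.05).

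Probe sets of 1 collagen gene gave unlike ratios in several cases. For the 9 collagen genes with a pair of probe sets above the floor on both arrays, the log2 ratios of the brightest pair differed by 0.16 to 1.34, with a median of 0.58, against 0.35 over all 4380 genes. The difference was over 1 for Col4a1, Col4a5, Col14a1 and Col1a2. Of the 13 higher genes, 10 had a second probe set above the floor. All probe sets above the floor had a log2 ratio above 0 in 10 of 10, and for 7 of these every one was at least 2-fold higher. The brightest probe set made the call, so it could not disagree. Further probe sets of Col1a1, Col3a1, Col5a1 and Col5a2 were under the floor at day 0, which fixed their ratio above 0. These counts are therefore no independent check of the calls, and the same counts over all higher genes were not made. For Col4a5, Col12a1 and Col14a1 the second probe set had 0.28, 0.26 and 0.07, under the SD of 0.44, so it did not carry the call. The poly-A spikes, RNAs put in ahead of the labelling step, had a larger 3′ over 5′ signal ratio on the day 3 array in all 8 pairs, 1.32 to 2.90 times that of day 0. These pairs read the dap, lys, phe and thr RNAs, each more than once, so they are not independent. A trp control pair, not counted among the 8, went the other way (0.135 times that of day 0). Among control probe sets of the liver's own transcripts, this ratio was 1.91 times that of day 0 for Gapdh, 2.09 for beta-actin, 22.2 for the transferrin receptor, 0.59 for pyruvate carboxylase and 0.99 for 18S RNA. The position of each collagen probe set along its transcript was not analysed, and the part of this shift in the disagreement was not tested.

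Several collagen genes stand next to each other on the chromosome, and the neighbours were set side by side. Col3a1 and Col5a2 on chromosome 1, Col6a1 and Col6a2 on chromosome 10, and Col4a1 and Col4a2 on chromosome 8 have no protein-coding gene between them, and both genes of each pair were at least 2-fold higher. Col18a1, with 2 protein-coding genes between it and Col6a1, was lower by less than 2-fold. Col4a5 was higher beside Col4a6, which was under the floor. The pairs Col4a3 and Col4a4, Col6a4 and Col6a5, and Col9a1 and Col19a1 were near or under the floor.

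Across the family, 33 of the 42 genes had 36 windows of 250 bases in the RefSeq promoter table, among them 9 of the 13 higher genes with 10 windows. CCAAT was present on either strand in 13 of 36 collagen windows and 4 of 10 windows of higher genes, against 33.8% of all 32851 windows. GGGCGG was present in 21 of 36 and 6 of 10, against 32.7%, and TATAAA in 5 of 36 and 1 of 10, against 12.4%. CCCTCCCC was present in 10 of 36 and 6 of 10, against 9.69%. The windows of the 2 starts of Col6a2 share bases, so the windows are not independent. Most collagen windows also overlap an annotated gene, often the collagen gene's own span, so they do not all lie upstream of the outermost start. Among the higher genes, only the windows of Col1a2, Col3a1, Col6a1 and the outer Col6a2 start were free of annotation. Such overlaps were not counted over all 32851 windows. A match is a description of these letters, not a binding site.

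Most genes that fold, modify and export procollagen were under 2-fold. Of 22 with a probe set, 3 were at least 2-fold higher, 1 lower, 16 under 2-fold and 2 under the floor (median log2 ratio 0.70, against 0.08 for all genes). The 3 higher are 13.6% of the list, near the 8.93% of all named genes and the 12.9% of those above the floor. Serpinh1, the collagen chaperone HSP47, went from 295 to 1926, 6.53-fold higher. Plod2, the lysyl hydroxylase of collagen cross-link sites, went from 9.40 to 242, at least 3.54-fold higher, and P3h3, of the prolyl 3-hydroxylase family, from 53.8 to 199.9, at least 2.93-fold. Crtap, a partner of prolyl 3-hydroxylation, was 1.95-fold higher. Mia3, the TANGO1 receptor that loads procollagen for export, went from 5483 to 2532, 2.17-fold lower, while a further Mia3 probe set had a log2 ratio of −0.11.

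Of 11 genes of procollagen cleavage and cross-linking, 4 were at least 2-fold higher, none lower and 3 under the floor (median 1.003). The share of 36.4% higher stands beside 8.93% of all named genes. Loxl1 and Lox, lysyl oxidases that cross-link collagen and elastin, were under the floor at day 0. Loxl1 went from 66.3 to 369 (at least 5.41-fold) and Lox from 7.30 to 302 (at least 4.43-fold), and another Lox probe set had a log2 ratio of 0.57. Pcolce, which enhances removal of the C-terminal propeptide, went from 240.4 to 1219, 5.07-fold higher. Tgm2, a transglutaminase, was 2.04-fold higher, and the log2 ratios of its probe sets ran from −0.37 to 2.12.

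Of 20 genes of collagen degradation and its inhibitors, 3 were at least 2-fold higher, none lower and 8 under the floor (median 0.56). The 3 are 15% of the list, near the background of 8.93%, or 12.9% above the floor. Timp1, an inhibitor of matrix metalloproteinases, went from 45.1 to 422, at least 6.19-fold higher. Mmp14, a membrane-bound collagenase, went from 576 to 1573.5, 2.73-fold higher, and Mmp2, a gelatinase that Mmp14 activates, from 124 to 283, 2.27-fold. Mmp12, the macrophage elastase, read 38.9 at day 0, under the floor, and 136 at day 3, at least 1.999-fold higher. It was not called, but this bound does not tell on which side of 2-fold it lies. The collagenase and gelatinase genes Mmp8, Mmp9 and Mmp13 were among those under the floor on both arrays.

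Of 9 collagen receptor genes, Ddr1, a receptor kinase for collagen, was at least 2-fold higher, from 105 to 389 (3.72-fold), with another probe set at −0.40. This 1 gene is 11.1% of the list, about the background share. None was lower, and Itga1, the integrin alpha 1 chain, was 1.54-fold higher (list median 0.42). Of 13 genes of matrix that binds collagen, 6 (46.2%, against 8.93% of all named genes) passed 2-fold upward and none downward (median 1.005). Lum, a proteoglycan of collagen fibrils, went from 489 to 4107, 8.41-fold higher, and Eln, elastin, was 6.16-fold higher, its other probe set having a log2 ratio of 0.26. Thbs2, a matricellular thrombospondin, was 4.19-fold higher (another probe set 0.53), and Sparc, a collagen-binding matricellular protein, 3.44-fold higher (another probe set −0.51).

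The list of 15 other basement membrane genes had 7 (46.7%, against the same 8.93%) past 2-fold upward and 1 downward (median 0.95). Nid1, the nidogen that links laminin to type IV collagen, went from 459.96 to 7113, 15.5-fold higher. Lama1 and Lamc1, laminin chains, were 3.48-fold and 3.20-fold higher, and Pxdn, the peroxidase that cross-links type IV collagen, 3.09-fold. Lama3, a laminin chain of epithelia, was 2.21-fold lower, and another of its probe sets had a log2 ratio of −0.15.

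Markers of the cell types that whole liver holds also differed between the arrays. Beside the marker counts, 8.93% of all named genes and 12.9% of those above the floor were at least 2-fold higher. The summed signals of the markers are given as a rough size of each list, since a few bright probe sets can set a sum. Of 9 myofibroblast markers with a probe set, 8 were at least 2-fold higher, and Cnn1 was under the floor on both arrays. The summed signal of the list was 1938 at day 0 and 8503 at day 3. Timp1 and Lox of this list were under the floor at day 0, so their calls rest on the array where they are high. Acta2, smooth muscle actin, went from 256 to 1342, 5.23-fold higher, and Vim, vimentin, was 5.26-fold and S100a6 7.72-fold higher. Of 14 stellate cell markers, 5 were higher by 2-fold or more, 1 was lower and 8 differed by less, with a median log2 ratio of 0.61. The summed signal was 16119 and 24830.5, and mostly followed Reln (3357 and 9454) and Rgs5 (3653 and 6438). Hand2, Reln, Pdgfra and Pdgfrb were 3.05-fold, 2.82-fold, 2.76-fold and 2.72-fold higher, and Vipr1 was 2.37-fold lower. Lrat and Colec11 had log2 ratios of 0.28 and 0.24, Angptl6, Gfap and Ecm1 of −0.18, −0.49 and −0.99, so this list was mixed. Of 11 portal fibroblast and mesothelial markers, 4 passed 2-fold upward and none downward, Mfap4, Gli1 and Wt1 were under the floor, and the summed signal was 891 and 2060.2. Thy1 was at least 2.74-fold higher, Cd34 3.29-fold and Fbln2 2.45-fold, while Msln had a log2 ratio of −0.63. Rgs5, Lrat, Colec11, Angptl6, Gfap, Ecm1 and Msln were named after their values were seen.

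Of 12 sinusoidal endothelial markers none was 2-fold higher or lower (median 0.04, summed signal 13115 and 10109). Kupffer cell markers were at least 2-fold higher in 6 of 9 (summed signal 9063 and 22930.5), led by Marco, a scavenger receptor, at 9.35-fold. Cholangiocyte markers were at least 2-fold higher in 4 of 6 (summed signal 283 and 1279), with Epcam at least 6.57-fold higher on 1 probe set and at a log2 ratio of −0.06 on another. Epcam, Krt7 and Muc1 were under the floor at day 0, so these calls rest on the array where they are high. Of the 6, 2 lay above the floor on both arrays, and among these Krt19 was past 2-fold (3.31-fold higher). Timp1, Lox and Postn stand both in the myofibroblast list and in a pathway list, as Eln does among the portal fibroblast markers. The higher fibrillar, type IV and type VI collagens were thus found on the same array as markers past 2-fold upward. These were 8 of 9 myofibroblast (88.9%, Timp1 and Lox as bounds), 6 of 9 Kupffer (66.7%) and 4 of 6 cholangiocyte markers (66.7%, mostly bounds). They were also 5 of 14 stellate (35.7%) and 4 of 11 portal fibroblast and mesothelial markers (36.4%, Thy1 as a bound). The share over all named genes was 8.93%, and 12.9% of those above the floor. The part of each cell type in the collagen differences was not tested.

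**Figure D3:**
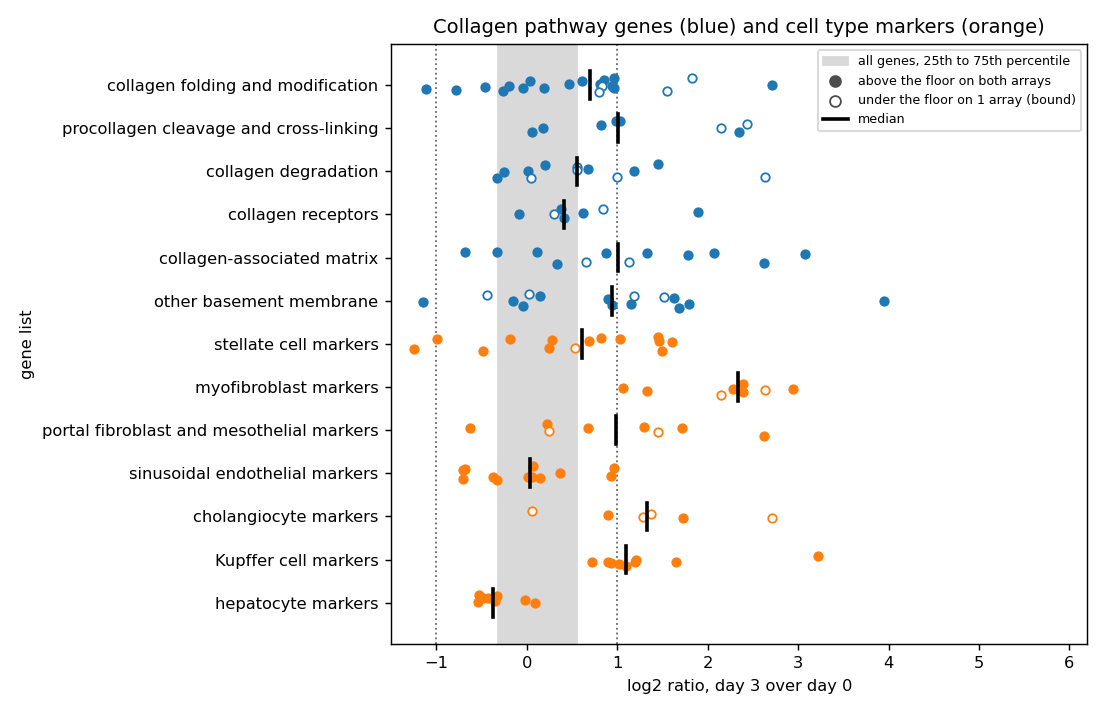
Log2 ratio of day 3 over day 0 for the genes of 13 lists, with collagen pathway lists in blue and cell type marker lists in orange. Each circle is a gene, open circles are bounds, black bars are list medians, and the grey band is the 25th to 75th percentile of all genes. Myofibroblast markers have the highest median (2.34) and hepatocyte markers the lowest as plotted (−0.37). Under quantile normalisation and loess the sinusoidal endothelial markers were lowest (−0.19 and −0.11), with hepatocyte markers at 0.038 and −0.015.

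**Figure D4:**
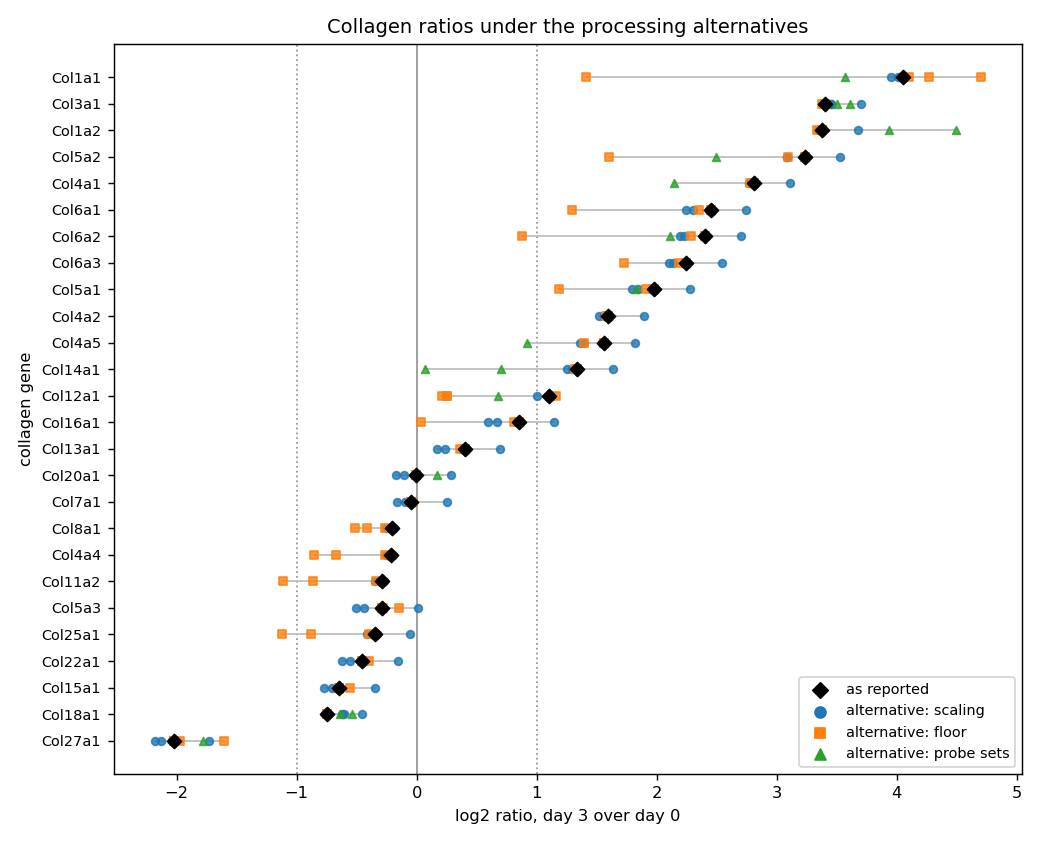
Log2 ratio of each of the 26 collagen genes as reported (black diamonds) and under up to 11 alternative settings for scaling (blue), floor (orange) and probe set choice (green), with dotted lines at 2-fold. Col1a1, Col1a2, Col3a1, Col4a1, Col4a2, Col5a1, Col5a2, Col6a1 and Col6a3 stay past 2-fold higher and Col27a1 past 2-fold lower in every setting that measured them, while Col4a5, Col6a2, Col11a2, Col12a1, Col14a1, Col16a1 and Col25a1 cross a 2-fold line in at least 1 setting.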

How the data were processed

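The authors deposited 1 linear intensity per probe set and array, computed with GCOS and MAS5 per the submitters' processing notes, with versions and scaling target not given in the sources used here. Of 45101 probe sets, 64 controls were left out, and 34945 had 1 symbol in the array annotation, 932 several and 9160 none. The Entrez IDs of 82 of 82 collagen probe sets matched RefSeq GRCm38.p6. Signals were floored at 68.3, log2 was taken, and the probe set of highest mean log2 signal stood for a gene. Any collagen gene could be named. From other lists the rule allowed at most 4 genes lying farthest toward the side of the median, plus at most 2 past 2-fold on the opposite side. Outside this rule the text also names Mmp8, Mmp9, Mmp13, Cnn1, Mfap4, Gli1 and Wt1, which were under the floor on both arrays. It further names Postn, as a gene shared between lists, and Rgs5, Lrat, Colec11, Angptl6, Gfap, Ecm1 and Msln. The members and lists were chosen with earlier results of these data known. Alternatives were 4 scalings, 5 treatments of the floor, 2 of probe sets and 2 thresholds (1.5-fold and 4-fold). Simulated data were used to test the code. Python 3.11.15, pandas 2.3.3 and statsmodels 0.14.6 were used. The number of arrays, 1 per day, limits the precision.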

Additional observations from a re-analysis of the deposited data

How the results depend on the processing

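No value reversed its direction under any alternative that was run for the collagen genes, classes and lists, counting as reversed a difference past 2-fold that changed sign. The count of 13 higher genes was 8 at a threshold of 4-fold. At 2-fold it was 10 under a 75th percentile floor and with the mean over probe sets. It was 11 without shared probe sets and over genes above the floor on both arrays. These counts are 23.8% or 26.2% of the collagen genes, against 3.16% to 7.82% of all named genes in the same settings. It was 14 under spike scaling, a 25th percentile floor and no floor. The 14 are 33.3% of the collagen genes, against 13.3%, 13.3% and 12.8% of all named genes in turn. The count of 1 lower gene was 7 under a 25th percentile floor, 6 with no floor and 3 at 1.5-fold, where more low signals or smaller ratios enter. These lower counts are 16.7%, 14.3% and 7.14% of the collagen genes, against 10.1%, 9.73% and 9.88% of all named genes in turn. The fibrillar median of 2.61 was 3.53 after spike scaling, 1.31 and 1.41 under a 25th and a 75th percentile floor, 0.49 with no floor and 2.16 with the mean over probe sets. The basement membrane median of 1.58 was 0.59, 2.20 and 0.56 with these 2 floors and no floor. The FACIT median of 0.85 was −0.0087 with the 25th percentile floor, 0.26 with genes above the floor on both arrays, 0.12 with no floor and 0.030 without probe sets marked as shared. The beaded filament median of 2.40 was 1.30 under a 75th percentile floor, that of folding genes 0.25 and that of myofibroblast markers 1.33. The cholangiocyte median of 1.33 was 1.78 and 0.080 with the 25th and 75th percentile floors and 1.93 with no floor. Without shared probe sets the collagen-associated matrix median was 1.46 and the portal fibroblast and mesothelial median 1.45. Of 252 counts and medians, 228 moved by less than the SD between probe sets or within 1.5 times, among them the counts of 10, 11 and 14 higher genes. Over all genes, 1625 were higher and 710 lower, against 574 and 406 under a 75th percentile floor, 2412 and 1834 under a 25th, 2323 and 1770 without a floor and 2415 and 376 after spike scaling. No paired analysis was possible because each day has 1 array. With 1 array per day, no alternative measures the spread between animals, and signals near the floor give no reliable ratio.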
